A study of Mus musculus with 18 samples.

Results

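The 9 genes described here encode proteins that write, erase or read DNA methylation. They are the DNA methyltransferases Dnmt1, Dnmt3a and Dnmt3b, the maintenance factor Uhrf1, the methylcytosine oxygenases Tet1, Tet2 and Tet3, the glycosylase Tdg and the reader Mbd2. They were taken by name from the 30583 genes of the count table, and all 9 were among the 16311 genes that passed the filter on low counts. RNA was sequenced from hearts of 18 male C57BL/6JR mice, 12 weeks old, with 3 mice in each of 6 groups. In 5 groups the left anterior descending artery of the heart had been tied off, which causes a myocardial infarction, and tissue was taken after 10 min or after 1, 6, 24 or 72 h. The sham group (0 h) had the operation with a suture passed but not tied, so all 6 groups had anaesthesia and surgery. The title names gene expression and DNA methylation over the course of an infarction; only RNA was analysed here. The labels give the RNA source as the infarct area of the left ventricle and the cell type as cardiomyocytes, but describe no separation of cells. Each library is therefore whole tissue in which fewer cells of a type and less RNA per cell cannot be told apart.

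DNA methylation is placed on cytosines that precede guanines. Dnmt3a and Dnmt3b set new marks, while Dnmt1 copies existing marks onto the new strand after DNA replication, guided by Uhrf1, which binds DNA methylated on the parental strand alone. The Tet enzymes oxidise methylcytosine using oxoglutarate and oxygen, and Tdg cuts out the oxidised forms so that base excision repair can put back an unmodified cytosine. Mbd2 binds methylated DNA and brings in the NuRD complex, which removes histone acetyl groups and moves nucleosomes. In the adult heart, cardiomyocytes seldom divide, whereas fibroblasts and immune cells multiply after an infarction.

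The libraries held 18199172 to 25062351 counts. Levels are given as CPM, counts per 1000000 counts after TMM scaling, a scaling that centres most genes of each library on the others. A called gene is one with an adjusted p under 0.05 in edgeR's quasi-likelihood test (Benjamini-Hochberg over the 16311 genes). A log2 fold change is the model's difference between group means, and all contrasts with sham share the same 3 sham libraries. The tissue changed greatly with time. The summed CPM of 8 cardiomyocyte markers was 56695 to 61936 in sham, 24672 to 38827 at 24 h and 13745 to 18038 at 72 h. That of 8 macrophage markers was 292 to 338 in sham, 626 to 769 at 24 h and 3591 to 4747 at 72 h, and that of 6 fibroblast markers 657 to 704, 615 to 922 and 7814 to 10092. The sum of 6 neutrophil markers was 3.03 to 4.56 in sham, 101 to 748 at 6 h, 43.0 to 744 at 24 h and 59.2 to 73.5 at 72 h, and 5 endothelial markers summed to 1125 to 1231 in sham and 664 to 889 at 72 h. All 8 cardiomyocyte markers were called lower at 72 h, and all 8 macrophage and all 6 fibroblast markers higher. Lymphocyte markers summed to at most 5.71 CPM in any library. The part of these shifts in the results below was not tested. Replicate 1 at 6 h stood apart with 151 CPM of 3 atrial markers, against at most 3.41 in each other library. Scaling matters at 72 h: with library totals in place of TMM, the median log2 difference of all genes from sham moved from 0.03 to 0.61, and the share of genes called higher went from 34.2% to 58.1% and lower from 32.2% to 14.6%.

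None of the 9 genes was called at 10 min, when 0.0736% of all genes were, or at 1 h, when 0.294% were; 0 of the 9 had an unadjusted p under 0.05 at either time in edgeR, and DESeq2 called 0. At 6 h, 3 of 9 were called, Tet2 higher and Dnmt3a and Tet1 lower, beside 28.4% of all genes (16.3% higher, 12.2% lower). At 24 h, 5 were called, with Dnmt1, Uhrf1 and Tdg higher and Dnmt3a and Tet1 lower, beside 43.8% of all genes (23.7% higher, 20.2% lower). At 72 h, 5 were called, with Dnmt1, Uhrf1, Tet3 and Tdg higher and Tet1 lower, beside 66.4% of all genes (34.2% higher, 32.2% lower). An F test over the whole course called 7 of 9, all but Mbd2 (edgeR adjusted p = 0.0686) and Dnmt3b (0.119), beside 78.4% of all genes. None of these counts stands far from the share of all genes called. Groups that do not overlap sham are common too. At 72 h, 39.3% of all genes lay wholly above sham and 36.5% wholly below. The shares were 28% and 25.7% at 24 h, 23.1% and 21.2% at 6 h, and 11% and 9.07% at 10 min. The median log2 fold change of the 9 genes was 0.07 at 6 h, 0.19 at 24 h and 0.35 at 72 h, against -0.01, 0.01 and 0.03 for all genes tested. With library totals, 0 of the 9 were called higher and 2 lower at 6 h (11.7% and 17.2% of all genes), 4 higher and 2 lower at 24 h (34.1% and 11.1%), and 8 higher and 0 lower at 72 h (58.1% and 14.6%).

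**Figure D1:**
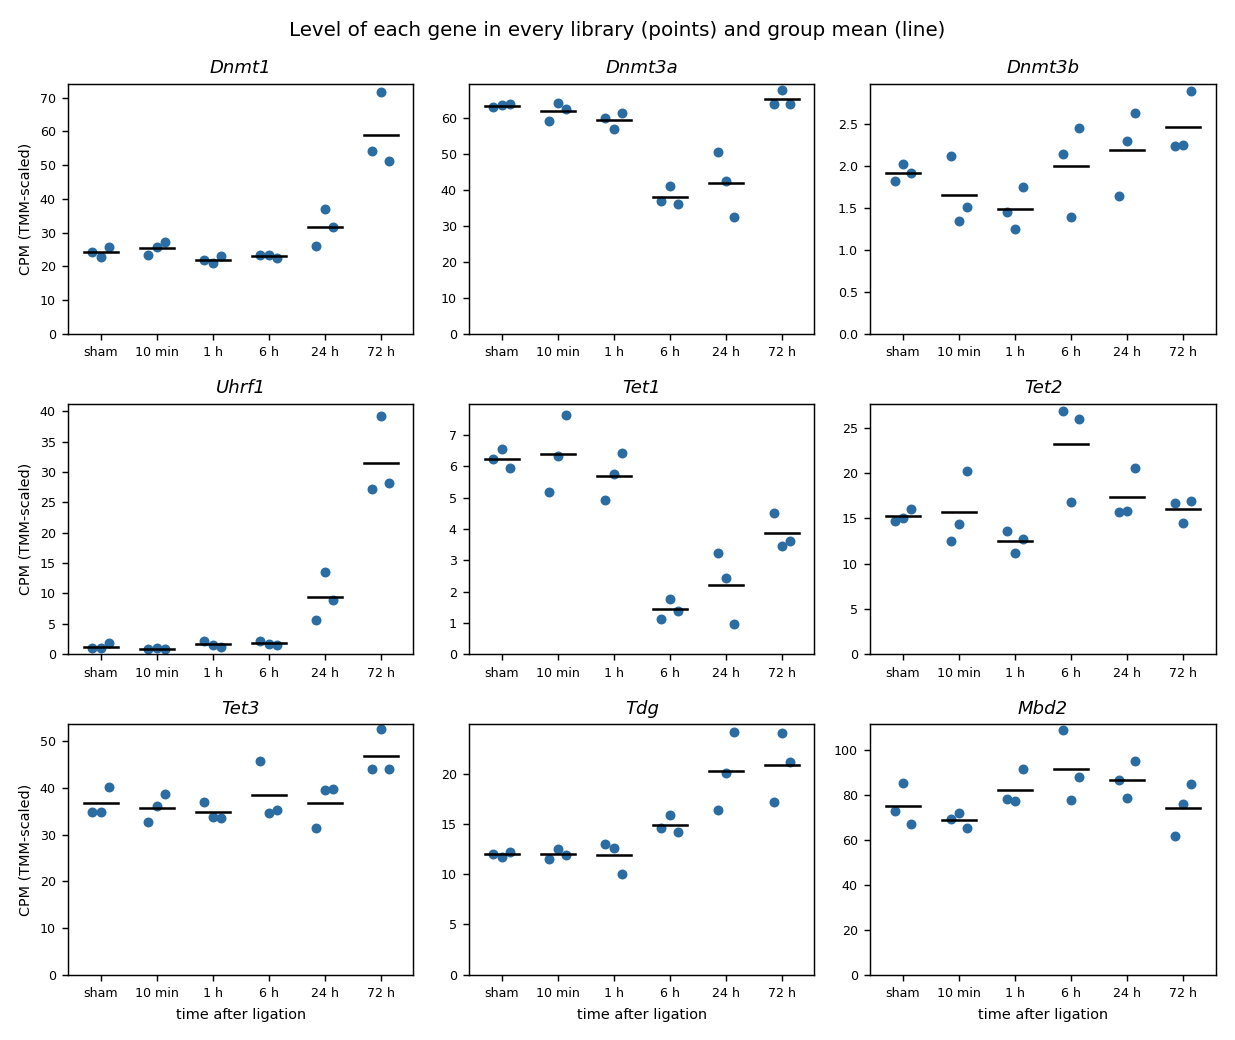
TMM-scaled CPM (vertical axis, from 0) of each of the 9 genes in the 18 libraries (points) by time after ligation (horizontal axis), with the group mean as a line. Uhrf1 and Dnmt1 are highest in the 3 libraries of 72 h, Tet1 and Dnmt3a are lowest at 6 and 24 h, and the early groups lie beside sham.

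Per unit of gene length (deposited FPKM, fragments per kilobase of gene and 1000000 fragments), Mbd2 was the most abundant of the 9 in sham at 21.6 ± 2.17 FPKM (SD, n = 3). Dnmt3a followed at 3.54 and Dnmt1 at 3.04 FPKM, with no overlap between the libraries of neighbours in this order. Tdg (2.07) and Tet3 (2.04 FPKM) overlapped each other, Tet2 lay at 0.838, and Tet1 (0.383), Dnmt3b (0.348) and Uhrf1 (0.275 FPKM) came last, with Uhrf1 overlapping both of the others. At 72 h the order was different. Mbd2 was still first at 32.2 FPKM, but Dnmt1 (11.1) and Uhrf1 (10.3), whose libraries overlapped, now stood next. Dnmt3a (5.46) and Tdg (5.40) overlapped, as did Tdg and Tet3 (3.90), while Tet2 (1.32), Dnmt3b (0.673) and Tet1 (0.356 FPKM) did not overlap a neighbour. Tet1 was thus the lowest of the 9 at 72 h, below Uhrf1, which had been lowest in sham. The order rests on the length used, which for Dnmt1 (7377 bases) and Dnmt3a (16642 bases) is that of all annotated exons. By mean CPM at 72 h, which is not per length, Dnmt3a (65.3) stood above Dnmt1 (59.0) and Dnmt3b (2.46) below Tet1 (3.86).

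The maintenance pair rose late and far apart in size. Dnmt1 (ENSMUSG00000004099, chr9:20907209-20959888, minus strand, GENCODE M21 on GRCm38) stood at 24.3, 22.7 and 25.6 CPM in the sham mice. It was 26.0, 37.0 and 31.6 CPM at 24 h and 54.1, 71.6 and 51.3 CPM at 72 h, so that the 24 h and 72 h groups overlapped neither sham nor each other. Dnmt1 rose by a log2 fold change of 0.38 (SE 0.13, edgeR adjusted p = 0.0219) at 24 h and of 1.28 (SE 0.13, adjusted p = 7.67e-08), or 2.44-fold, at 72 h. The 24 h call was lost in 4 of 14 alternatives; without replicate 2 at 24 h the log2 fold change was 0.25 (adjusted p = 0.142), and without sham replicate 1 or 2 the adjusted p was 0.0552 or 0.0829. The 72 h call held in all 14 alternatives run.

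Uhrf1 (ENSMUSG00000001228, chr17:56303321-56323486, plus strand) was scarce in sham, at 0.961, 0.985 and 1.82 CPM (19 to 41 counts). At 10 min it was 0.872, 1.05 and 0.838 CPM, at 1 h 2.17, 1.48 and 1.22 CPM, and at 6 h 2.21, 1.67 and 1.54 CPM, all overlapping sham. It then reached 5.65, 13.5 and 8.87 CPM at 24 h and 27.2, 39.2 and 28.2 CPM at 72 h, each group above every earlier library. The rise against sham was 7.36-fold at 24 h (log2 2.88, SE 0.32, edgeR adjusted p = 4.52e-06) and 24.7-fold at 72 h (log2 4.63, SE 0.32, adjusted p = 1.66e-09). Among the 9 genes this was the largest change in either direction. Both calls held in all 14 alternatives, with log2 values at 72 h from 3.13 (limma on log2 FPKM with 1 added, which shrinks low genes) to 5.21.

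Dnmt1 and Uhrf1 were also the genes of this group with a word read by E2F factors, which switch on genes of DNA replication, ahead of a start site. The words TTTCCCGC, TTTCGCGC, TTTGGCGC and TTTGCCGC were searched on both strands in the 250 bases before each RefSeq start site (GRCm38.p6). They were chosen with the results known, and none is the reverse complement of another. Of 13 windows of 8 of the genes (Mbd2 had no entry), 2 held a word, against 611 of 32851 windows of all genes (1.86%). Counted by gene rather than by window, 5 of 19 S phase genes had a word, and the share of all genes by gene was not computed. All 4 words contain a CpG, and the windows of all genes were not matched for CpG. The 2 stretches, read 5′ to 3′ on the gene's strand with the word in capitals (TTTCGCGC, in Dnmt1 as its reverse complement), are shown because they belong to the pair that rose together. The Dnmt1 stretch is chr9:20952835-20952873 on the minus strand, the Uhrf1 stretch chr17:56304097-56304156 on the plus strand.
Dnmt1: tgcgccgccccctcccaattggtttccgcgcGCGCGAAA
Uhrf1: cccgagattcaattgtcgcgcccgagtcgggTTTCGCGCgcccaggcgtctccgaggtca
The word starts 219 bases before the start site in Dnmt1 and 185 bases before it in Uhrf1. The Dnmt1 window holds 26 CpG and the Uhrf1 window 30, against a median of 6 over all windows; 9.59% and 5.94% of windows hold at least as many. Dnmt3a windows with 38 and 40 CpG and the Tet2 window with 51 held no word. A match describes letters and shows no binding.

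S phase genes moved at the same times. Of 22 genes of DNA replication and proliferation, 3 were called higher at 6 h, 15 at 24 h and all 22 at 72 h, with 0 called lower. The shares of all genes called higher at these times were 16.3%, 23.7% and 34.2%. Their median log2 fold change was 1.06 at 24 h and 2.50 at 72 h, and with 1 of the 6 libraries left out the 24 h count ran from 12 to 18. The 6 h count was 0 without sham replicate 2, 1 without sham replicate 1 or 3 or 6 h replicate 1, and 5 without 6 h replicate 2, of which 2 were lower. The 4 with the smallest F test p were Lig1, which joins replicated fragments (3.90 CPM in sham, 27.8 at 72 h, log2 2.83), Mcm5 of the replicative helicase (4.02 to 39.6 CPM, log2 3.30), the licensing factor Cdt1 (1.48 to 13.6 CPM, log2 3.20) and Tyms, which makes thymidylate (1.30 to 18.2 CPM, log2 3.79; edgeR adjusted p at most 2.11e-09 for the 4). The log2 change of Dnmt1 at 72 h (1.28) was below that of 20 of the 22 and the change of Uhrf1 (4.63) above that of 21. The summed S phase CPM was 125 to 133 in sham, 189, 286 and 218 in the 24 h replicates and 564, 760 and 610 in the 72 h replicates. Replicate 2 was highest for this sum, for Dnmt1 and for Uhrf1 at both times.

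**Figure D2:**
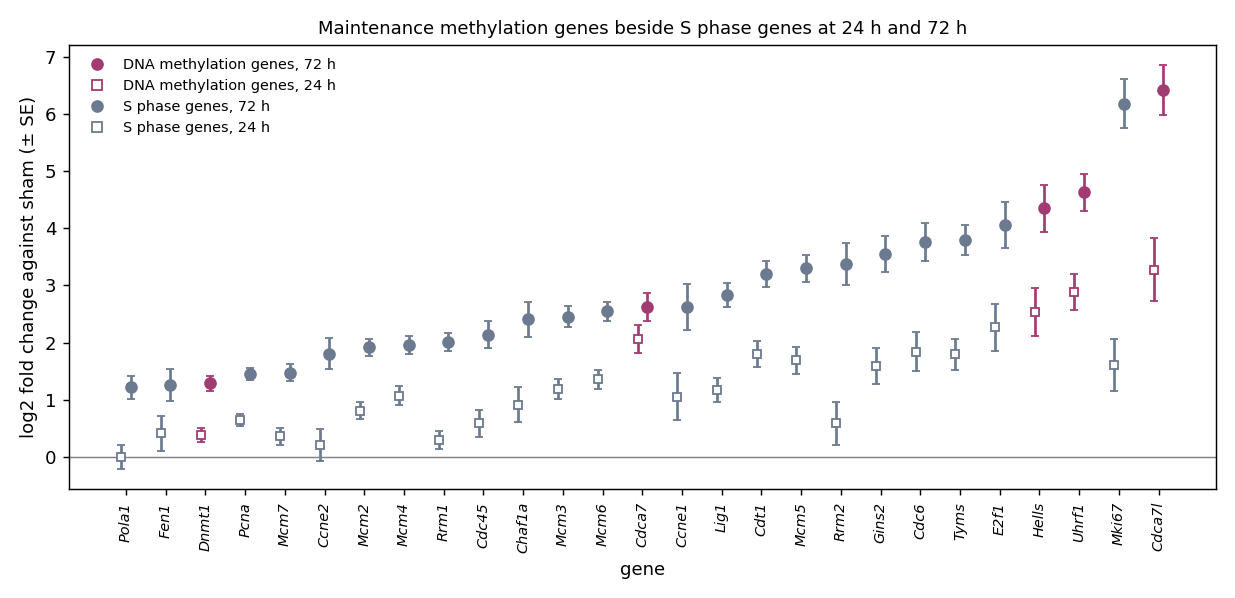
Log2 fold change against sham (vertical axis, ± SE) of Dnmt1, Uhrf1 and the cofactors Hells, Cdca7 and Cdca7l (purple) and of 22 S phase genes (grey) at 24 h (open squares) and 72 h (filled circles), ordered by the 72 h value. Dnmt1 lies near the low end and Uhrf1 near the high end of the S phase genes; Cdca7l had at most 2 counts in any sham library, so its value depends on how the model treats low counts.

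Under TMM, the de novo methyltransferases did not follow Dnmt1. Dnmt3a (ENSMUSG00000020661, chr12:3806007-3914443, plus strand), the main de novo enzyme of adult tissue, was 63.0, 63.6 and 63.9 CPM in sham. It was 59.2, 64.2 and 62.6 CPM at 10 min, 60.0, 57.0 and 61.6 CPM at 1 h, and 37.0, 41.1 and 36.2 CPM at 6 h. At 24 h it was 50.7, 42.4 and 32.6 CPM and at 72 h 63.8, 67.9 and 64.1 CPM, so that the 6 h and 24 h groups lay below every library of sham, 10 min and 1 h, and the 72 h group overlapped sham. Dnmt3a fell by 0.74 on the log2 scale at 6 h (SE 0.11, edgeR adjusted p = 0.000137), a 1.67-fold lower level, and by 0.60 at 24 h (SE 0.11, adjusted p = 0.000407). Both calls held in all 14 alternatives. At 72 h the difference from sham was 0.04 (95% interval -0.18 to 0.26, adjusted p = 0.770) under TMM but 0.62 (adjusted p = 6.64e-05) with library totals. With limma on log2 FPKM the 72 h difference was also called (0.508, limma adjusted p = 0.000124). From 1 h to 6 h the change was -0.64 (adjusted p = 0.000604), and from 24 h to 72 h Dnmt3a rose by 0.64 (adjusted p = 0.000111).

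The antisense gene Dnmt3aos shares 133 exon bases with Dnmt3a on the other strand. It had 0 to 3 counts in the sham libraries and 26 to 46 at 72 h, when Dnmt3a had 2013 to 2229 counts. The use of strand in counting is not given in the sources used here, so reads over the shared bases could belong to either gene.

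Dnmt3b (ENSMUSG00000027478, chr2:153649450-153687730, plus strand), the other de novo enzyme, had few counts. There were 36 to 43 counts in sham and 71 to 91 at 72 h, or 1.82, 2.02 and 1.91 against 2.24, 2.25 and 2.90 CPM. The 72 h libraries lay above the sham libraries, but the difference of 0.36 on the log2 scale (95% interval -0.12 to 0.84, edgeR adjusted p = 0.207) was not called under TMM. It was called with library totals (0.95, edgeR adjusted p = 0.00259) and with limma on log2 FPKM (0.309, limma adjusted p = 0.000856). At the other times its log2 difference from sham ran from -0.37 at 1 h to 0.19 at 24 h, none of them called.

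Within the Dnmt family the balance shifted, which does not depend on scaling between libraries. By FPKM, Dnmt1 made up 43.9% ± 1.54 of the summed 3 genes in sham (SD, n = 3) and 64.2% ± 3.65 at 72 h, a difference of 20.3 percentage points. Dnmt3a made up 51.1% ± 1.23 of the sum in sham, 39.4% ± 2.06 of it at 6 h and 31.9% ± 2.80 at 72 h. Dnmt3b made up 5.03% ± 0.346 in sham and 3.96% ± 0.956 at 72 h. The sham and 72 h libraries did not overlap for Dnmt1 or Dnmt3a, which gave the smallest p that 3 against 3 mice allow (exact permutation test, two-sided, p = 0.1, 20 assignments); for Dnmt3b the exact p was 0.3. At 6 h the share of Dnmt1 was already 53.9% ± 0.658, although its CPM at that time (23.5, 23.4 and 22.4) overlapped sham.

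**Figure D3:**
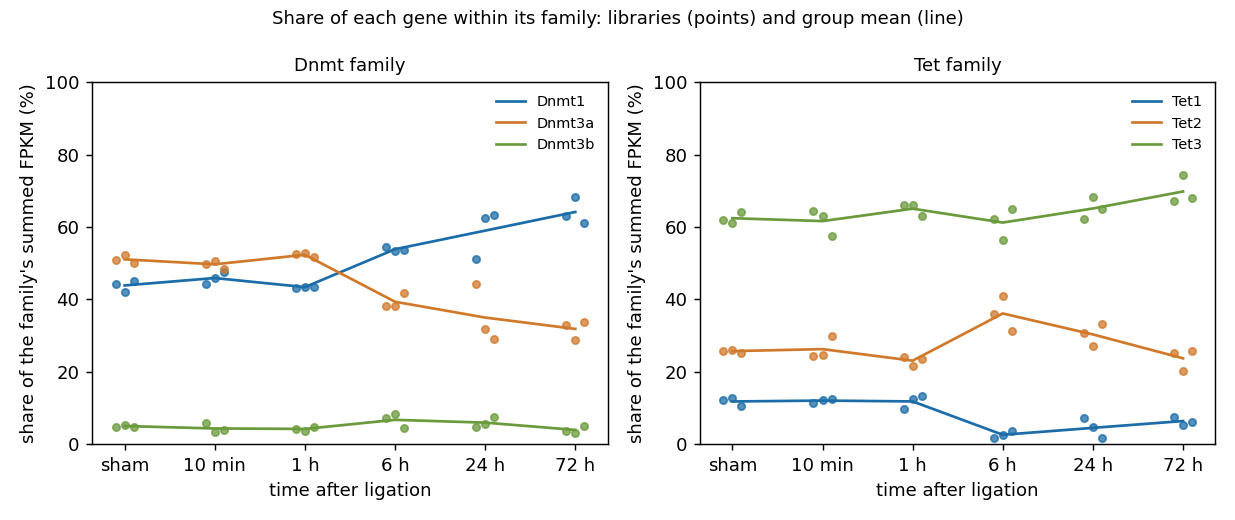
Share of each gene in the summed FPKM of the Dnmt family (left) and of the Tet family (right), in percent (vertical axis), for each library (points) and as group mean (line) by time after ligation. The Dnmt1 and Dnmt3a lines cross between 1 h and 6 h, and the Tet1 share drops from 11.8% in sham to 2.61% at 6 h. The crossing is per gene length: mean CPM of Dnmt3a stayed above that of Dnmt1 at 72 h (65.3 against 59.0).

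The 3 Tet genes moved in different directions. Tet1 (ENSMUSG00000047146, chr10:62804570-62908996, minus strand) was 6.22, 6.53 and 5.95 CPM in sham. It was 5.17, 6.34 and 7.65 CPM at 10 min and 4.93, 5.74 and 6.41 CPM at 1 h, both overlapping sham. At 6 h it was 1.13, 1.77 and 1.38 CPM (19 to 37 counts), at 24 h 3.24, 2.44 and 0.980 CPM, and at 72 h 4.51, 3.44 and 3.63 CPM, each group below every sham library. Tet1 fell by 2.11 on the log2 scale at 6 h (SE 0.30, edgeR adjusted p = 6.79e-05), to a level 4.31-fold lower, and by 1.47 at 24 h (SE 0.28, adjusted p = 0.000449). These calls held in all 14 alternatives. The 72 h value, -0.69 (SE 0.26, adjusted p = 0.0274), was lost in 6 of 14: without sham replicate 1 or 2 or 72 h replicate 2 or 3 the adjusted p ran from 0.0551 to 0.0875, with library totals the value was -0.11 (adjusted p = 0.727) and with limma on log2 FPKM it was -0.03. The step from 1 h to 6 h was -1.98 (adjusted p = 0.000183). At 6 h, 1 of 8 cardiomyocyte markers was called lower (12.2% of all genes were), with a sum of 51374 to 61819 CPM. In the same contrast 6 of 6 neutrophil markers were called higher, beside 16.3% of all genes. From 24 h to 72 h Tet1 rose by 0.78 (adjusted p = 0.0254); without replicate 3 at 24 h the value was 0.44 (adjusted p = 0.0994) and without replicate 1 at 72 h 0.65 (adjusted p = 0.0942).

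Tet2 (ENSMUSG00000040943, chr3:133463679-133545139, minus strand), which lacks the DNA-binding CXXC domain that Tet1 carries, was 14.7, 15.0 and 16.0 CPM in sham and 26.8, 16.8 and 26.0 CPM at 6 h. All 3 libraries of 6 h were above sham, replicate 2 by little. Tet2 rose by 0.60 on the log2 scale (SE 0.18, edgeR adjusted p = 0.0165), and this call was lost in 5 of 14 alternatives: without replicate 1 at 6 h, the library with atrial markers, the value was 0.49 (adjusted p = 0.0874), without replicate 3 it was 0.51 (0.0628), without sham replicate 1 it was 0.58 (0.0579), with library totals 0.49 (0.0527) and with limma on log2 FPKM 0.24 (0.104). Against 1 h, when Tet2 was 13.6, 11.2 and 12.7 CPM, the rise at 6 h was 0.89 (adjusted p = 0.00182) and held in all 14. At 24 h it was 15.7, 15.8 and 20.5 CPM and at 72 h 16.7, 14.5 and 16.9 CPM, overlapping sham both times (log2 0.18 and 0.07, not called under TMM). At 72 h Tet2 was called higher with library totals (0.655, edgeR adjusted p = 0.00343) and with limma on log2 FPKM (0.335, adjusted p = 0.00849). The step from 6 h to 24 h (-0.42, edgeR adjusted p = 0.0822) was called without 6 h replicate 2 (-0.609, 0.0125) and without 24 h replicate 3 (-0.555, 0.0353).

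Tet3 (ENSMUSG00000034832, chr6:83362373-83459084, minus strand) was the most abundant Tet gene in every group by mean FPKM. It was 34.9, 35.0 and 40.2 CPM in sham and 44.0, 52.6 and 44.0 CPM at 72 h, above every sham library. The rise of 0.35 on the log2 scale (SE 0.12, edgeR adjusted p = 0.0150) was lost in 3 of 14 alternatives, without sham replicate 1 or 2 (adjusted p = 0.0610 in each) or without 72 h replicate 2 (0.0893). From 10 min to 24 h its log2 difference from sham lay between -0.07 and 0.07. By share of the Tet family's FPKM, Tet3 went from 62.5% ± 1.53 in sham to 69.8% ± 3.90 at 72 h and Tet1 from 11.8% ± 1.13 to 6.41% ± 1.13, with no overlap in either (exact permutation test, two-sided, p = 0.1, the smallest possible). Tet2 made up 25.7% ± 0.401 in sham, 36.1% ± 4.92 at 6 h and 23.7% ± 3.02 at 72 h (sham against 72 h, exact permutation p = 0.2).

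Tdg (ENSMUSG00000034674, chr10:82629828-82650799, plus strand), the glycosylase downstream of the Tet enzymes, rose and stayed up. It was 12.0, 11.7 and 12.2 CPM in sham, 14.6, 15.8 and 14.2 CPM at 6 h, 16.4, 20.1 and 24.2 CPM at 24 h and 17.2, 24.1 and 21.1 CPM at 72 h. The 6 h libraries lay above sham without a call (log2 0.31, edgeR adjusted p = 0.109). The rise was 0.75 at 24 h (SE 0.14, adjusted p = 0.000431) and 0.80 at 72 h (SE 0.14, adjusted p = 6.66e-05), and both calls held in all 14 alternatives. The step from 6 h to 24 h (0.44, adjusted p = 0.0262) was lost in 5 of 14, among them leaving out replicate 1 or 3 at 6 h or replicate 2 or 3 at 24 h (adjusted p from 0.0562 to 0.131). From 24 h to 72 h the step of Tdg was 0.04 under TMM (edgeR adjusted p = 0.815). That step was called higher with library totals (0.433, edgeR adjusted p = 0.0248) and with limma on log2 FPKM (0.359, limma adjusted p = 0.0243). Tdg shares 367 exon bases with Glt8d2 on the other strand, which had 25 to 52 counts in sham and 63 to 91 at 72 h, beside 225 to 275 and 546 to 791 counts for Tdg; at 24 h Glt8d2 was called lower (log2 -1.72, adjusted p = 0.00179) while Tdg was higher.

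The reader Mbd2 (ENSMUSG00000024513) showed no called change under TMM with all 18 libraries. It was 72.7, 85.3 and 67.0 CPM in sham, 109, 77.6 and 87.8 CPM at 6 h, 86.3, 78.4 and 94.7 CPM at 24 h and 61.6, 75.9 and 84.7 CPM at 72 h, overlapping sham throughout. The largest difference was 0.28 on the log2 scale at 6 h (95% interval 0.02 to 0.55, edgeR adjusted p = 0.118), which was called without 6 h replicate 2 (0.39, adjusted p = 0.0445). At 24 h the difference was 0.20 (adjusted p = 0.224) under TMM, and it was called with library totals (0.40, adjusted p = 0.0149) and with limma on log2 FPKM (0.39, adjusted p = 0.0211). At 72 h the value was -0.02 (95% interval -0.28 to 0.24) under TMM, 0.58 (adjusted p = 0.000431) with library totals and 0.54 (adjusted p = 0.00103) with limma on log2 FPKM.

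**Figure D4:**
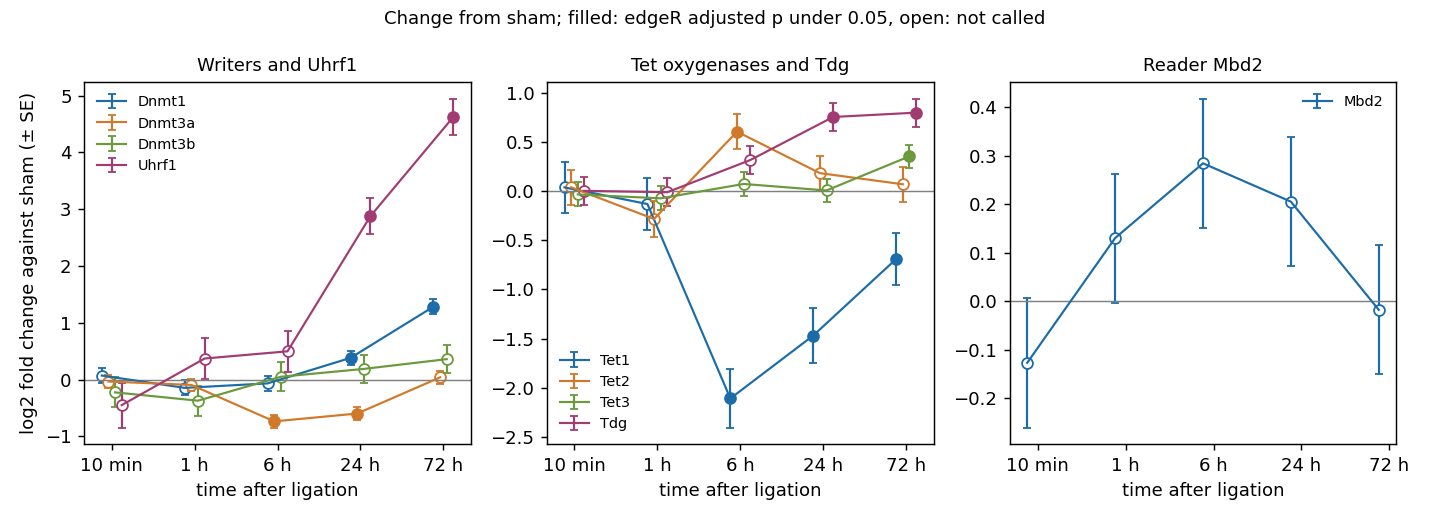
Log2 fold change against sham (vertical axis, ± SE from the edgeR model; scales differ between panels) of the writers and Uhrf1, of the Tet genes and Tdg, and of Mbd2, by time after ligation; filled points were called and open points were not. Tet1 reaches -2.11 at 6 h, Uhrf1 4.63 at 72 h, and no point before 6 h is filled.

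Between consecutive times, 0 of the 9 genes were called from 10 min to 1 h (0.307% of all genes; 1 of the 9, Uhrf1, had an unadjusted edgeR p under 0.05, and DESeq2 called 0), 3 from 1 h to 6 h (Dnmt3a and Tet1 lower, Tet2 higher; 24.5% of all genes), 3 from 6 h to 24 h (Dnmt1, Uhrf1 and Tdg higher; 27.8%) and 5 from 24 h to 72 h (Dnmt1, Dnmt3a, Uhrf1, Tet1 and Tet3 higher; 50.5%). Uhrf1 rose by 2.38 on the log2 scale from 6 h to 24 h (edgeR adjusted p = 5.27e-05) and by a further 1.75 from 24 h to 72 h (adjusted p = 2.62e-05). Dnmt1 rose by 0.45 (adjusted p = 0.0146) and 0.90 (adjusted p = 1.06e-05) over the same steps; the first of these was lost without 24 h replicate 2 (0.32, adjusted p = 0.0962) and with only the 6 libraries compared (0.45, 0.0997). The rise of Tet3 from 24 h to 72 h (0.35, adjusted p = 0.0219) was lost without 24 h replicate 1 (0.25, 0.129), without 72 h replicate 2 (0.25, 0.120) and with only the 6 libraries compared (0.37, 0.0535). From 6 h to 24 h Dnmt3a and Tet1 were not called as reported (0.14 and 0.64), but both were called higher with library totals (0.43, adjusted p = 0.0061, and 0.93, 0.0216) and without 24 h replicate 3 (0.29, 0.0256, and 0.97, 0.00729), and Dnmt3a with limma on log2 FPKM (0.29, 0.0206).

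Of 10 partners of the methyltransferases, 0 were called lower, and those called higher numbered 1 at 6 h, 6 at 24 h and 8 at 72 h. Beside them, 16.3%, 23.7% and 34.2% of all genes were called higher at these times. Their median log2 fold change at 72 h was 2.09. Hells, a chromatin remodeller needed for methylation, was 0.568 ± 0.0449 CPM in sham and 11.7 ± 2.47 at 72 h (log2 4.35, edgeR adjusted p = 5.30e-08), and its activator Cdca7 was 1.57 ± 0.282 and 9.67 ± 2.20 CPM (log2 2.62, adjusted p = 3.11e-08). Cdca7 was also the call at 6 h (log2 0.98, adjusted p = 0.00765). The related Cdca7l had 0 to 2 counts in the sham libraries and 136 to 173 at 72 h. Uhrf2, the paralog of Uhrf1, rose from 22.9 to 46.9 CPM at 72 h (log2 1.03, adjusted p = 8.56e-08), much less than Uhrf1, and was not called at 6 h or 24 h. Dppa3, which binds Uhrf1 and keeps it from chromatin in oocytes, had 0 or 1 count in the sham libraries and 33 to 49 at 72 h. Trim28, a corepressor that recruits methyltransferases, rose by 0.55 at 72 h (adjusted p = 9.92e-05).

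The other 9 genes listed with the readers include Mbd3, Mbd5 and Mbd6, and binding of methylated DNA by each was not checked. Mbd3 is also in the NuRD list below. The 9 genes split in direction: 2 were called higher and 0 lower at 6 h, 1 and 2 at 24 h, and 2 and 3 at 72 h, with a median of -0.06 at 72 h. Of all genes, 28.4% were called at 6 h, 43.8% at 24 h and 66.4% at 72 h. The counts of this list lie near or below those shares. Mbd1 rose from 50.4 ± 6.13 to 98.1 ± 9.66 CPM at 6 h (log2 0.96, edgeR adjusted p = 7.04e-05) and was called lower at 72 h (log2 -0.46, adjusted p = 0.00637). Zbtb38, a zinc finger reader, rose from 31.3 ± 4.16 to 45.4 ± 2.96 CPM at 6 h (log2 0.53, adjusted p = 0.00061) and was not called later. Mbd4, a reader that also excises mismatched thymine, as Tdg does, rose from 1.93 to 4.54 CPM at 72 h (log2 1.24, adjusted p = 0.000121). The higher calls at 24 h numbered 3 without 24 h replicate 2 and 2 without sham replicate 1 or 2, and those at 72 h 1 without sham replicate 2 or 72 h replicate 2. With library totals 4 of these 9 genes were called higher and 0 lower at 24 h, and 6 and 0 at 72 h.

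Among 15 Tet regulators and base excision repair genes, 4 were called higher and 3 lower at 6 h, 3 and 2 at 24 h and 2 and 5 at 72 h. The shares of all genes called were 28.4%, 43.8% and 66.4% at these times, and the count of this list at 72 h lies below that share. Gadd45g, a stress-induced gene linked to demethylation, rose at 6 h, when it was 206 ± 104 CPM against 26.7 ± 3.26 in sham (n = 3 mice, log2 2.95, edgeR adjusted p = 9.01e-05) and was not called at 72 h. Cxxc4, a regulator that binds Tet2, was 4.83 CPM in sham, 3.17 CPM at 6 h and 1.54 CPM at 72 h, a fall at each time from 6 h (log2 -1.64 at 72 h, adjusted p = 1.64e-06), and Ung, the uracil glycosylase, fell at 24 h and 72 h, from 44.7 CPM in sham to 16.5 at the last time (log2 -1.44, adjusted p = 0.000157). Apex1, the nuclease that cuts after Tdg, rose by 0.54 at 6 h, 0.85 at 24 h and 0.70 at 72 h (adjusted p at most 0.0258). With library totals this list had 3 higher and 6 lower calls at 6 h and 9 higher and 2 lower at 72 h. Its 7 calls at 6 h became 3 without sham replicate 1 or 6 h replicate 1 and 4 without sham replicate 3, and the higher calls at 72 h numbered 1 in each of the 6 fits without 1 library.

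Of 12 genes of NuRD complexes, Mbd3 among them, 6 were called higher and 3 lower at 72 h. This is near the 66.4% of all genes called at 72 h (34.2% higher, 32.2% lower), and 28.4% were called at 6 h and 43.8% at 24 h. Hdac1, a deacetylase of the complex, rose from 26.6 ± 1.29 to 57.1 ± 3.43 CPM (log2 1.10, edgeR adjusted p = 4.21e-09), the remodeller Chd3 was called lower at 24 h (log2 -0.40) and higher at 72 h (log2 0.63, adjusted p = 5.08e-06), and the histone chaperone Rbbp7 fell by 0.47 at 72 h (adjusted p = 0.000114). With library totals 11 of the 12 were called higher at 72 h and 0 lower. At 6 h there were 3 higher and 2 lower calls, against 0 and 2 with library totals, and at 24 h 4 and 2, against 5 and 0. The 5 calls at 6 h became 1 without sham replicate 2 or 3, 2 without 6 h replicate 1 and 3 without sham replicate 1 or 6 h replicate 3, and the 6 at 24 h became 3 without 24 h replicate 3.

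Genes listed for the metabolism of methyl groups or of the oxoglutarate used by Tet enzymes mostly fell by 72 h. The list includes Gnmt and Ahcy, so it does not hold supply genes alone. Of 15 tested, 1 was called higher and 1 lower at 6 h, 2 and 6 at 24 h, and 2 and 12 at 72 h (12 in each fit without 1 library), with a median of -0.79 at 72 h. Among all genes the calls were 16.3% higher and 12.2% lower at 6 h and 23.7% and 20.2% at 24 h. At 72 h they were 34.2% and 32.2%. With library totals the 24 h calls of the list were 3 and 3 and its 72 h calls 3 and 6. The lower calls at 6 h numbered 3 without 6 h replicate 2 and 0 in the other 5 fits without 1 library, and those at 24 h 4 without sham replicate 2 or 24 h replicate 3 and up to 7 without 24 h replicate 1; the higher calls were 2 at 6 h without sham replicate 1 or 3 and 3 at 24 h without 24 h replicate 1. Idh2, a mitochondrial isocitrate dehydrogenase that makes oxoglutarate, was 2157 ± 155 CPM in sham and 456 ± 91.2 at 72 h (log2 -2.24, edgeR adjusted p = 4.86e-09). Idh3a of the citrate cycle fell by 1.41 on the log2 scale at 72 h (adjusted p = 2.95e-07). Mat2b, a subunit of the enzyme that makes the methyl donor S-adenosylmethionine, fell from 97.5 ± 2.26 to 56.6 ± 1.72 CPM at 72 h (log2 -0.79, adjusted p = 9.03e-07). The summed CPM of the list was 3113 to 3381 in sham and 1014 to 1236 at 72 h, while cardiomyocyte markers fell over the same time as given above.

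**Figure D5:**
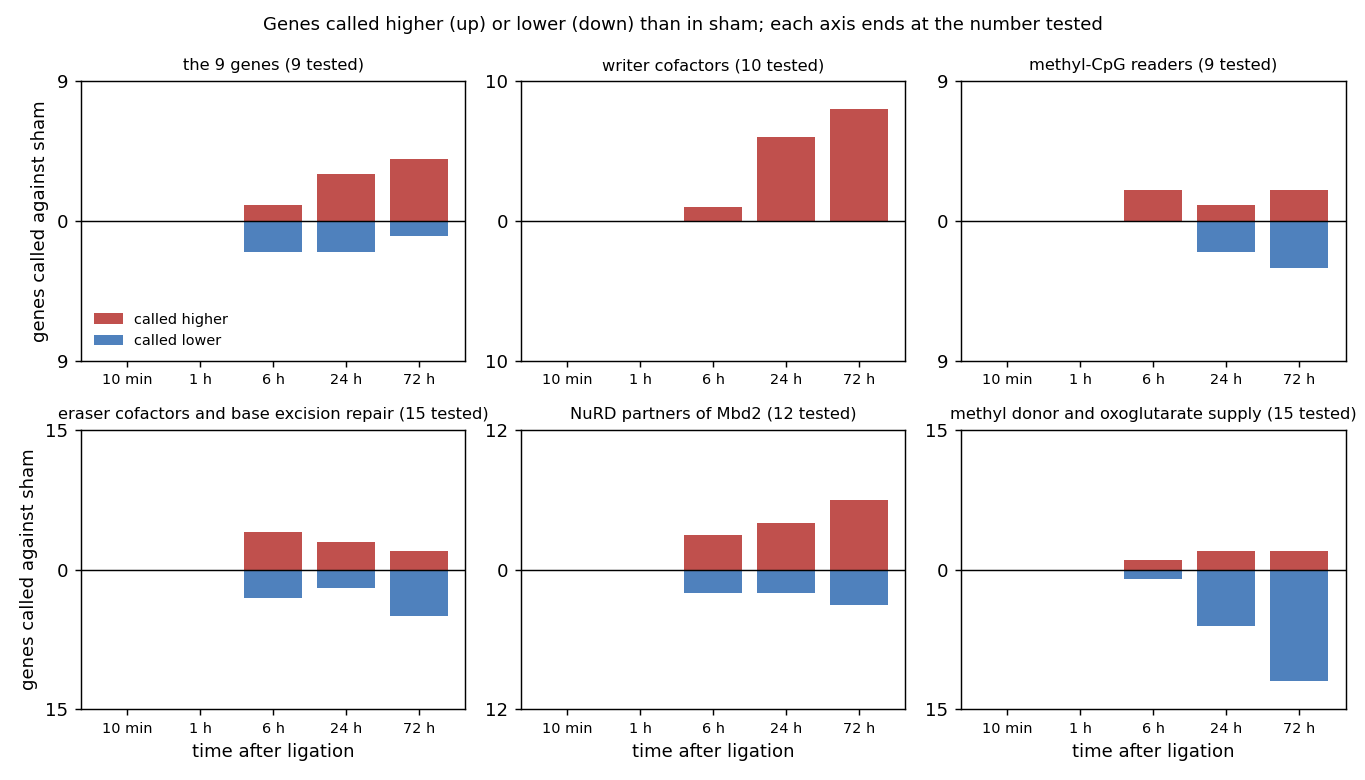
Number of genes called higher (red, upward) or lower (blue, downward) than in sham by edgeR under TMM, for the 9 genes and 5 related lists, by time after ligation; each vertical axis ends at the number of genes tested. No list has a call before 6 h, the writer cofactors have 8 of 10 called higher at 72 h and the methyl donor and oxoglutarate genes 12 of 15 called lower. Over all genes, 34.2% were called higher and 32.2% lower at 72 h.

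Genes whose profile over the 18 libraries was most like each of the 9 were found by Pearson correlation of log2 CPM among 11669 genes. The 18 libraries share their groups, depth range and tissue shifts, so these are descriptions. Nearest to Dnmt1 were Col5a2 (r = 0.976), Smim15 (0.973) and Sephs1 (0.971), and nearest to Uhrf1 were Vim (r = 0.984), Nt5c and Tubb5 (both 0.977). Tet1 had Cc2d2a (r = 0.964), Slc29a1 (0.940) and Pcyox1 (0.939), and Dnmt3a had Zfp521 (0.947), Tmem220 (0.939) and Pde5a (0.936). For Tdg they were Tgfbi (r = 0.954), Nras and Tmem183a (both 0.953). The nearest genes were less close for Tet3 (Fmnl3, r = 0.907), Dnmt3b (Trmt2a, 0.882), Tet2 (Gmeb2, 0.874) and Mbd2 (Riok3, 0.856).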

How the data were processed

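Per the labels, RNA of 18 mice was poly(A)-selected, fragmented and sequenced, with 1 library per mouse. The authors deposited whole-number read counts per Ensembl gene and FPKM values; the submitters' processing notes name cutadapt 1.18, HISAT2 2.1.0, featureCounts and mm10, and no strand setting is given in the sources used here. The deposited FPKM columns of replicates 2 and 3 at 6 h match each other's counts, which leaves group means as they are. Whether the FPKM or the count columns are misnumbered cannot be told, and replicate numbers at 6 h follow the counts. Gene names and coordinates are from GENCODE M21 (GRCm38), promoters from RefSeq.

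Counts were tested in R 4.3.3 with edgeR 4.0.16 (filterByExpr, TMM, robust glmQLFit, glmQLFTest, two-sided, 1 mean per group over 18 libraries); 14272 genes were filtered out. SE is from the same model, and 95% intervals assume a normal error. Family shares were tested by exact permutation. The alternatives were DESeq2 size factors, library totals, no filter, a filter of 10 counts in 6 libraries, a replicate block, each library left out, only the 6 libraries compared, DESeq2 1.42.0 and limma 3.58.1 on log2(FPKM + 1). The edgeR script was tested on simulated data.

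The 9 genes, the related lists, the E2F words and the markers were chosen with earlier results of these data known. All 9 are named; of the related lists, called genes with the smallest F test p (up to 6 a list; some that count here are not reported by name); of the S phase list 4; and the 3 nearest genes by correlation among those averaging 50 counts or more (prior count 2). Each group's replicates are separate mice per the labels. PCR reads are not independent molecules.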

Additional observations from a re-analysis of the deposited data

Results flagged for a closer look

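Each time from 6 h on differed from the time before it in some of the 9 genes, by the edgeR contrast of the 2 times itself (p adjusted over all genes, n = 3 mice per time, log2 fold changes). From 1 h to 6 h, Dnmt3a (-0.642) and Tet1 (-1.977) were lower and Tet2 (0.888) was higher. From 6 h to 24 h, Dnmt1 (0.449), Uhrf1 (2.380) and Tdg (0.439) were higher. From 24 h to 72 h, Dnmt1 (0.902), Dnmt3a (0.637), Uhrf1 (1.748), Tet1 (0.778) and Tet3 (0.346) were higher. Dnmt3a and Tet1 therefore moved down in the first of these steps and up in the last. The steps of Dnmt1 and Tdg from 6 h to 24 h and of Tet1 and Tet3 from 24 h to 72 h each lost their call in some alternatives, as given with their values above.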

How the results depend on the processing

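Of 1133 values of the 9 genes under alternatives, 1080 kept their side of the threshold, 31 lost a call and 20 gained one. Another 2 changed direction with a call, both Mbd2 at 72 h (0.576 with library totals, 0.542 with limma on FPKM). The cause was not tested. Among the 1080 are values that changed direction with no call in either fit, such as Tdg at 1 h (log2 from -0.085 to 0.094). With library totals, 8 of the 9 genes were called at 72 h, as with limma on FPKM (8), and 5 from 6 h to 24 h, when 6880 genes were called. At 10 min 26 genes were called with no filter, 60 by DESeq2, 386 from only the 6 libraries compared and 2 by limma on FPKM, beside 12 as reported. At 1 h DESeq2 called 95 genes and the 6 libraries alone 208, beside 48; from 10 min to 1 h these were 133 and 262, beside 50. The 6 libraries alone gave 1035 genes and 1 of the 9 from 6 h to 24 h and 3 of the 9 from 24 h to 72 h. Leaving out each library in turn gave 0 to 5 genes at 10 min, 31 to 39 at 1 h, 2926 to 4655 at 6 h, 6 to 40 from 10 min to 1 h, and 2481 to 4084 from 1 h to 6 h. For the 9 genes it gave 2 to 4 called at 6 h, 4 to 5 at 24 h, 3 to 5 at 72 h, 1 to 5 from 6 h to 24 h, 4 to 5 from 24 h to 72 h, and 6 to 8 over the course. Libraries with the same replicate number showed no clear shared deviation. Same-numbered deviations had a median correlation of 0.0225 (3 of 45 pairs over 0.1), and 6 of 18 libraries correlated best with their own number. These values cannot tell whether same-numbered mice were handled together. With the replicate block, Tet2 from 6 h to 24 h became called (-0.413, edgeR adjusted p = 0.0452) and no other call of the 9 genes changed. Depth limits Dnmt3b, Tet1 and, before 24 h, Uhrf1.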

Other observations

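The 24 h mice lay apart from each other in several of the 9 genes. Tet1 was 3.24, 2.44 and 0.980 CPM in replicates 1, 2 and 3, and Dnmt3a 50.7, 42.4 and 32.6 CPM. The summed cardiomyocyte markers in the same libraries were 38827, 33977 and 24672 CPM and the neutrophil markers 173, 43.0 and 744 CPM. Tdg was 16.4, 20.1 and 24.2 CPM in the same order. Uhrf1 was highest in replicate 2 (13.5 CPM), which also had the highest sum of fibroblast markers at 24 h (922 CPM, against 703 and 615). In replicates 1, 2 and 3 the macrophage markers summed to 626, 662 and 769 CPM and the endothelial markers to 850, 981 and 987 CPM. Both of these sums were highest in replicate 3. Any link between the genes and the marker sums was not tested.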
